A study of Mus musculus with 24 samples.

Results

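Inflammatory mediators act on sensory neurons through G protein-coupled receptors, and 10 genes for such receptors are described here: the prostaglandin E2 receptors Ptger1, Ptger3 and Ptger4, the prostacyclin receptor Ptgir, the bradykinin receptors Bdkrb1 and Bdkrb2, the protease-activated receptors F2r and F2rl1, the histamine receptor Hrh1 and the endothelin receptor Ednra. They were found by symbol among the 47643 gene identifiers of the count files. Counts were present for 9 of the 10 at a level that could be tested, among 17178 genes tested in all. RNA-seq was done on GFP-positive cells sorted from L4 dorsal root ganglia (DRG) of mice aged 8 to 9 weeks on a mixed background of C57BL/6 and AJ. Control mice were Nav1.8-Cre, Tsc2 flox/+ and Rosa26-ZsGreen, and Nav-Tsc2 mice were Nav1.8-Cre, Tsc2 flox/null and Rosa26-ZsGreen. Each genotype had 4 mice, replicates 1 and 2 male and replicates 3 and 4 female, with 3 libraries of 100 cells from each mouse. The ganglia were taken 3 d after a crush of the sciatic nerve on the other side, in both genotypes. Both groups thus carried the Cre driver, the fluorescent reporter and at least 1 floxed Tsc2 allele, so control neurons had lost a copy of Tsc2, and the null allele of Nav-Tsc2 mice was present in every cell of the animal. The Nav1.8 promoter drives Cre in most nociceptors and also in part of the myelinated neurons, so the sorted cells were a mixture.

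In inflamed or injured tissue, prostaglandins, kinins, proteases, histamine and endothelin reach nerve endings together. EP4 (Ptger4) and the IP receptor (Ptgir) couple to Gs, which raises cyclic AMP and activates protein kinase A. EP3 (Ptger3) couples mainly to Gi, which lowers cyclic AMP. EP1 (Ptger1), the bradykinin receptors, the H1 receptor (Hrh1) and the ETA receptor (Ednra) couple mainly to Gq, which acts through phospholipase C and protein kinase C. The protease-activated receptors PAR1 (F2r, cut by thrombin) and PAR2 (F2rl1, cut by trypsin and mast cell tryptase) carry their own ligand, which is exposed when their N terminus is cleaved. In nociceptors these pathways sensitize channels such as TRPV1.

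Ptgir, Ptger4 and F2r are the 3 genes that met the criteria for a lower level in Nav-Tsc2 neurons, and the sequence of 250 bases before the RefSeq start of each (GRCm38.p6) is shown, 5′ to 3′ on the strand of the gene. Capitals mark matches, on either strand, to the GC box GGGCGG, the AP-1 site TGANTCA or the Runx site TGTGGT. The windows are Ptgir chr7:16906240-16906489 on the + strand, Ptger4 chr15:5244188-5244437 on the - strand and F2r chr13:95618467-95618716 on the - strand. The annotated start of F2r in GENCODE lies inside this window, near its 3′ end.
Ptgir: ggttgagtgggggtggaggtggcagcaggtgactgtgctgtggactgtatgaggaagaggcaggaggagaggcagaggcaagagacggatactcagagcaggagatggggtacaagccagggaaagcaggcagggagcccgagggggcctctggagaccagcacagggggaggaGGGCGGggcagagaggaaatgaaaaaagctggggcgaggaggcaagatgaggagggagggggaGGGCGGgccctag
Ptger4: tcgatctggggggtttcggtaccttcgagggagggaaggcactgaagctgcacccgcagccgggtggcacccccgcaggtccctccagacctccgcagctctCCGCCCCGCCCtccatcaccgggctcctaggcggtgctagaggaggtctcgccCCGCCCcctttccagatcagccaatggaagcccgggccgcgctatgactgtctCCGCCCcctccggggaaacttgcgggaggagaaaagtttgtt
F2r: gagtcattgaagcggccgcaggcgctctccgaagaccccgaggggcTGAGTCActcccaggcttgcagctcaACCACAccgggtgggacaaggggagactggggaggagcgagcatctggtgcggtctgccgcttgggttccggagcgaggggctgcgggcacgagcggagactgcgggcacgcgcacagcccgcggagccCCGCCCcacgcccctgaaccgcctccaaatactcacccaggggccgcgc
The Ptgir window held 2 GC boxes and the Ptger4 window 4, the first pair of which overlapped. The F2r window held 1 match each to the AP-1 site, the Runx site and the GC box. Among 32851 promoter windows of the same length, 32.7% held a GC box, 6.75% the AP-1 site and 14.0% the Runx site. The cyclic AMP response element core TGACG (17.8% of windows), the E-box CACGTG (6.02%) and the TATA box TATAAA (12.4%) had no match in these 3 windows. GC content was 63.6% for Ptgir, 66.8% for Ptger4 and 70.8% for F2r, beside a median of 52.4% over all windows. Of the receptors not called, the Ptger3 window held 3 GC boxes, and overlapping Hrh1 windows held 2 and 4. Another Hrh1 window held 1 AP-1 match and a further one no match. The Ednra and Bdkrb2 windows held no match. GC boxes were thus not particular to the called receptors. No factor binding was measured, so a match is only a run of letters.

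The libraries held between 8339220 and 34228180 counts on genes, and the 3 libraries of a mouse summed to between 47959617 and 61290435. Levels are given as normalized CPM, the count per 1e6 counts of the scaled total of the mouse. As a check of the labels, Tsc2 (chr17:24595816-24632630, - strand) was at 20.9 ± 5.18 CPM in control and 8.87 ± 1.52 CPM in Nav-Tsc2 mice (mean ± SD, n = 4 mice each), with no overlap between genotypes (edgeR, adjusted p = 0.00400). Scn10a, the gene of Nav1.8 itself, was at 670.4 ± 138 CPM in control and 608 ± 35.1 CPM in Nav-Tsc2 mice, and its difference did not pass the test (edgeR, adjusted p = 0.526). Of 7 sorted neuron markers, Scn10a among them, 1 was lower and 1 higher. All Nav-Tsc2 mice lay below all control mice for 2 of them and above for 3, beside 12.3% and 14.6% of all tested genes. Their sum ranged from 14058.5 to 17111.9 CPM in control and from 15232.5 to 17374.4 CPM in Nav-Tsc2 mice. Markers of several cell types moved with genotype, by the criteria given below, which 8.00% of all tested genes met as lower and 9.12% as higher. Of 5 peptidergic markers 2 were lower, and their sum ranged from 9472 to 19213 CPM in control and from 4192 to 6964 CPM in Nav-Tsc2 mice. Of 6 markers of Nppb-positive itch neurons 3 were lower (sums from 71.5 to 406 CPM, and from 62.8 to 117 CPM). Of 3 C-LTMR markers 1 was higher, as were 3 of 4 tested endothelial, 2 of 5 tested mural and 1 of 5 tested macrophage markers. Of 11 glial markers 1 was lower. The glial sum ranged from 2877 to 3037 CPM in control and from 1887 to 2463 CPM in Nav-Tsc2 mice. None of 6 fibroblast, 5 nonpeptidergic or 6 myelinated neuron markers passed. All 5 nonpeptidergic markers had positive log2 fold changes. Their sum ranged from 339 to 1361 CPM in control and from 1509 to 1646 CPM in Nav-Tsc2 mice, without overlap. The fibroblast and myelinated sums overlapped between genotypes. The sum of 4 mast cell markers ranged from 0.542 to 4.26 CPM in control and from 0.0163 to 0.453 CPM in Nav-Tsc2 mice. Of these, Mcpt4 and Tpsb2 had no count in any library, and the 1 tested gene, Cpa3, was at 1.10 ± 0.755 and 0.152 ± 0.203 CPM and missed the threshold (edgeR, adjusted p = 0.0679), with no overlap between genotypes. Of 5 genes known to rise after axon injury (Atf3, Sprr1a, Gal, Ecel1 and Sox11), all 5 were higher in Nav-Tsc2 mice. None overlapped, and 14.6% of all tested genes also had every Nav-Tsc2 mouse above every control mouse. The sums ran from 431 to 1007 CPM in control and from 2575 to 3589 CPM in Nav-Tsc2 mice. The part of these shifts in the results below was not tested. The libraries came from bulk cells, so fewer cells of a type and less RNA per cell cannot be told apart, for any of the genes below.

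In Nav-Tsc2 neurons, 3 of the 9 tested receptors were lower than in control: the prostacyclin receptor Ptgir, the EP4 receptor Ptger4 and the thrombin receptor F2r. None was higher. The EP1 receptor Ptger1 had a fitted level of 32.9% of control but missed the threshold, and EP3, H1 and ETA had higher means in Nav-Tsc2 neurons without passing it. A gene was called when its adjusted p was under 0.05 and its log2 fold change exceeded 0.5 in either direction. By these criteria 8.00% of all tested genes were lower and 9.12% higher. All 4 Nav-Tsc2 mice lay below all 4 control mice for 2 of the 9 receptors, as for 12.3% of all tested genes, and above them for 0 of the 9, as for 14.6% of all tested genes. The median log2 fold change of the 9 was -1.60, beside 0.0082 over all tested genes. Bdkrb2 and F2rl1 were so low that they passed the count filter with few counts, most of them from control mice.

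**Figure D1:**
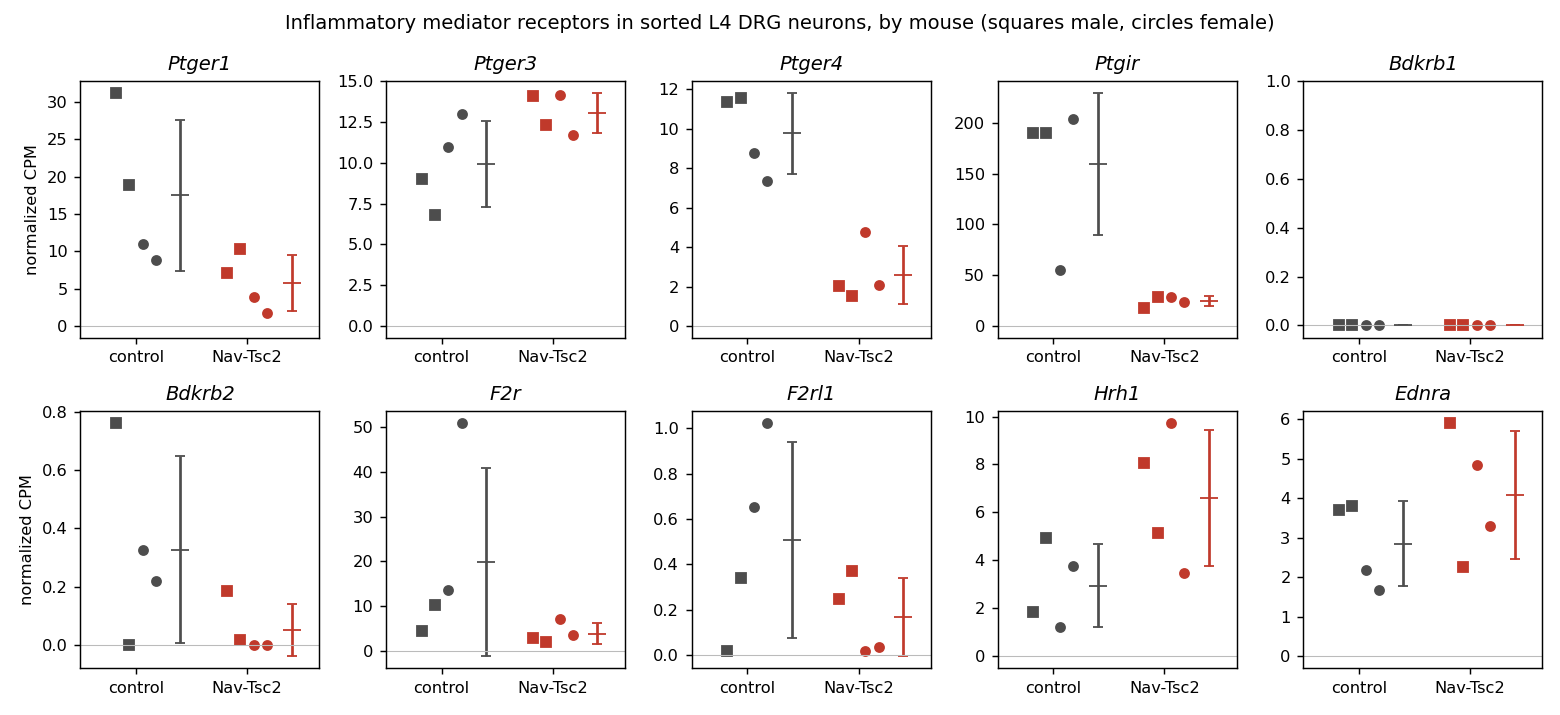
Normalized CPM of the 10 receptor genes in each mouse (squares, males; circles, females), with the mean and SD of 4 control (gray) and 4 Nav-Tsc2 (red) mice beside the points. Ptgir and Ptger4 separated the genotypes completely, F2r was high in control 4 at 50.9 CPM, and Bdkrb1 was at 0 in every mouse.

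**Figure D2:**
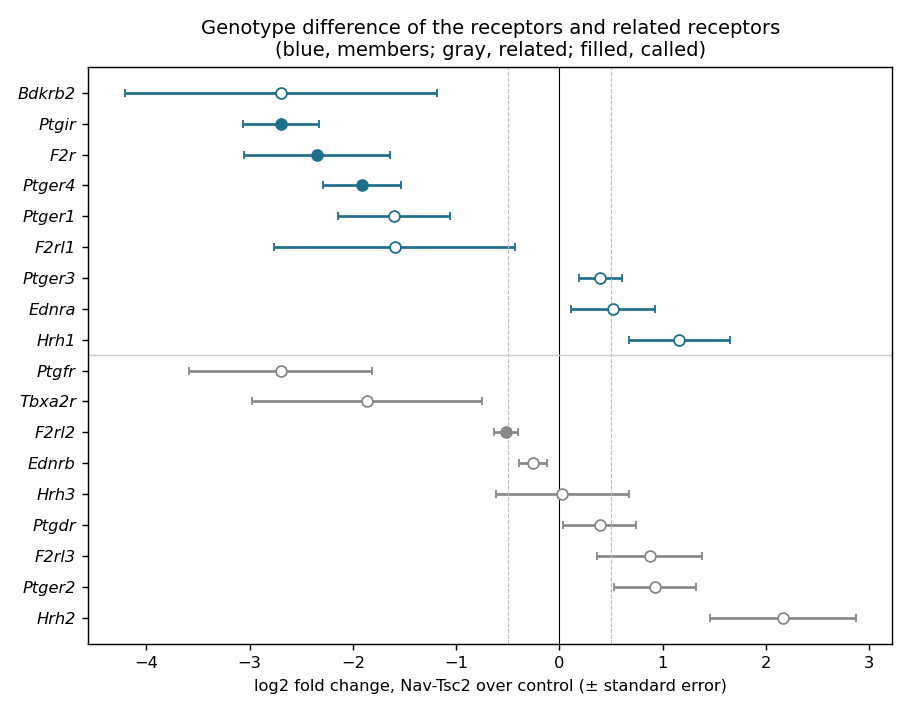
Log2 fold change of Nav-Tsc2 over control with its standard error for the 9 tested receptors (blue) and 9 tested relatives (gray). Filled points were called, and dashed lines mark a log2 fold change of 0.5 in either direction. Ptgir, F2r and Ptger4 were the called members at -2.70, -2.35 and -1.91, and F2rl2 was the called relative at -0.51.

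Ptgir (chr7:16906490-16910905, + strand), the receptor through which prostacyclin sensitizes nociceptors, was the most abundant of the 10. Control mice 1 to 4 had 189.6, 190.0, 55.3 and 204 CPM, and Nav-Tsc2 mice 1 to 4 had 18.0, 29.0, 28.3 and 23.3 CPM. Control 3 was well below the other control mice, yet it was still above every Nav-Tsc2 mouse. The means were 159.8 ± 69.9 CPM and 24.7 ± 5.11 CPM (SD, n = 4 mice each), and the fitted level in Nav-Tsc2 was 15.4% of control. The log2 fold change was -2.70 (SE 0.37, adjusted p = 0.0011, edgeR). Single libraries ranged from 13.6 to 314 CPM in control and from 3.62 to 50.1 CPM in Nav-Tsc2, so they overlapped where the mice did not. The peptidergic marker sum was also lower in Nav-Tsc2 mice. It was 19213, 18804, 9472 and 9867 CPM in control mice 1 to 4, and 6483, 6964, 4192 and 5225 CPM in Nav-Tsc2 mice 1 to 4. The part of the marker change in the difference of Ptgir was not tested.

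Ptger4 (chr15:5206661-5244187, - strand) encodes EP4, the Gs-coupled receptor by which prostaglandin E2 raises cyclic AMP. It was at 11.4, 11.6, 8.77 and 7.35 CPM in control mice 1 to 4, and at 2.02, 1.52, 4.77 and 2.07 CPM in Nav-Tsc2 mice 1 to 4. All Nav-Tsc2 mice were below all control mice, and Nav-Tsc2 3 was the highest of its group. The means were 9.77 ± 2.05 and 2.59 ± 1.47 CPM (SD, n = 4 mice each), a log2 fold change of -1.91 (SE 0.38, adjusted p = 0.0067, edgeR). Of its exon bases 16.5% overlap other genes, a region in which reads of the genes cannot be told apart without strand.

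Ptger1 (chr8:83666678-83672753, + strand) encodes EP1, which raises intracellular calcium. Control mice 1 to 4 had 31.2, 18.9, 11.0 and 8.90 CPM, and Nav-Tsc2 mice 1 to 4 had 7.12, 10.3, 3.94 and 1.79 CPM. In both genotypes the 2 male mice had the higher levels, and Nav-Tsc2 2 reached above control 4. The means were 17.5 ± 10.1 and 5.78 ± 3.70 CPM (SD, n = 4 mice each), and the log2 fold change of -1.60 (SE 0.55) missed the threshold at an adjusted p of 0.0661 (edgeR). With the replicate number as a block (replicate block) the log2 fold change was -1.70 and passed it (edgeR, adjusted p = 0.0126), as it did with sex as a covariate (edgeR, adjusted p = 0.0051). Without Nav-Tsc2 2 it was -2.04 (edgeR, adjusted p = 0.0497). The library kit did not mark strand, so the level of Ptger1 is uncertain as far as its reads could also come from the other strand.

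Ptger3 (chr3:157566892-157645888, + strand) encodes EP3, the Gi-coupled member of the group. It was at 8.98, 6.80, 10.9 and 13.0 CPM in control mice 1 to 4 and at 14.1, 12.3, 14.1 and 11.7 CPM in Nav-Tsc2 mice 1 to 4. The genotypes overlapped, and the Nav-Tsc2 mice lay within a narrow range. The means were 9.92 ± 2.64 and 13.1 ± 1.23 CPM (SD, n = 4 mice each), with a log2 fold change of 0.40 (SE 0.21) that did not pass the test (edgeR, adjusted p = 0.221).

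F2r (chr13:95601803-95618487, - strand), the thrombin receptor PAR1, had the largest coefficient of variation between control mice among the called receptors, at 106%. Control mice 1 to 4 had 4.54, 10.4, 13.7 and 50.9 CPM, and Nav-Tsc2 mice 1 to 4 had 2.84, 1.93, 7.12 and 3.69 CPM. Control 4 was far above the rest, and control 1 was below Nav-Tsc2 3, so the genotypes overlapped. All 3 libraries of control 4 were high, between 46.1 and 60.4 CPM, and no other library exceeded 28.8 CPM. The means were 19.9 ± 21.0 and 3.89 ± 2.27 CPM (SD, n = 4 mice each), and the log2 fold change of -2.35 (SE 0.71) passed at an adjusted p of 0.0423 (edgeR). Without control 4 it was -1.29 and no longer passed (edgeR, adjusted p = 0.111), and with a replicate block it was -1.94 (edgeR, adjusted p = 0.0618). It was also lost without Nav-Tsc2 1, 2 or 4, at adjusted p of 0.116, 0.111 and 0.0999 (edgeR).

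F2rl1 (chr13:95511732-95525227, - strand), the PAR2 gene, lies 76.6 kb from F2r and was close to the limit of detection. Over both genotypes 142 of its reads were counted. Control mice 1 to 4 had 1, 18, 36 and 51 counts, and Nav-Tsc2 mice 1 to 4 had 12, 21, 1 and 2 counts. The genotypes overlapped, and 8 of 12 libraries had a count in each. The difference did not pass the test (log2 fold change -1.60, SE 1.17, edgeR, adjusted p = 0.381), so no difference was detected.

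**Figure D3:**
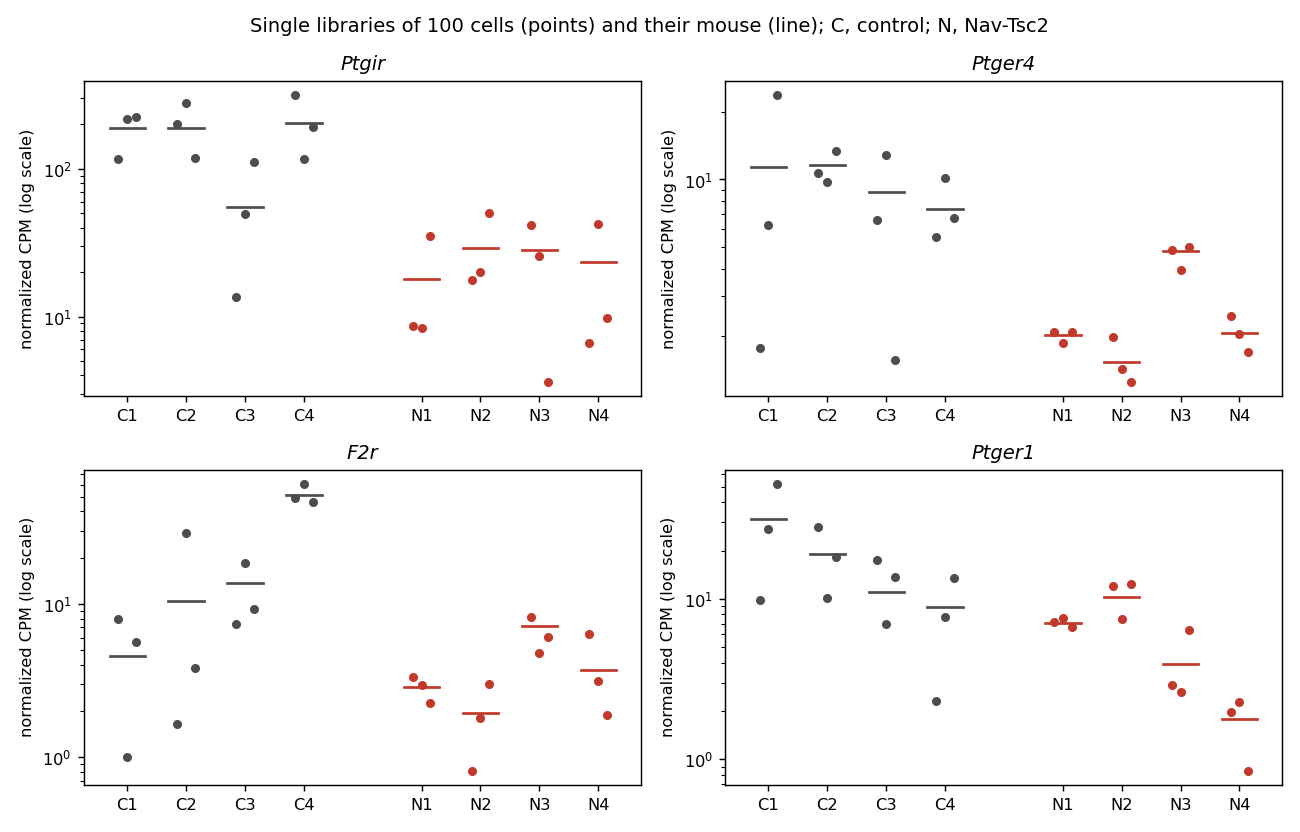
Normalized CPM on a log scale in each library of 100 cells (points) and in the mouse from summed counts (lines) for Ptgir, Ptger4, F2r and Ptger1. Libraries of control mice are gray (C1 to C4) and those of Nav-Tsc2 mice red (N1 to N4). All 3 F2r libraries of C4 lie above 46 CPM, and the 3 Ptgir libraries of C3 run from 13.6 to 111 CPM.

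Libraries of 100 cells from the same mouse differed widely. In control mice the median coefficient of variation between libraries of a mouse was 44.3% for Ptgir, 56.6% for Ptger4 and 61.8% for F2r, and between mice it was 43.8%, 21.0% and 106%. In Nav-Tsc2 mice the libraries of a mouse varied by 84.3%, 15.3% and 42.9%, and the mice by 20.7%, 56.7% and 58.2%. Of these 3 genes, F2r varied more between mice than between the libraries of a mouse in both genotypes, and Ptger4 did so in Nav-Tsc2 mice, where Ptgir showed the opposite order.

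Hrh1 (chr6:114397936-114483296, + strand), the histamine H1 receptor that takes part in itch and vascular leak, was at 1.85, 4.94, 1.21 and 3.78 CPM in control mice 1 to 4. Nav-Tsc2 mice 1 to 4 had 8.04, 5.15, 9.73 and 3.45 CPM. The Nav-Tsc2 mice were higher apart from Nav-Tsc2 4, which lay within the control range. The means were 2.94 ± 1.72 and 6.59 ± 2.82 CPM (SD, n = 4 mice each), and the log2 fold change of 1.16 (SE 0.49) did not pass after adjustment (edgeR, adjusted p = 0.127). When the 24 libraries were fitted singly, the mouse being a random effect, it was 2.57 and did not pass either (limma, adjusted p = 0.0842). A count was present in 9 of 12 control and 12 of 12 Nav-Tsc2 libraries. The median coefficient of variation between the libraries of a mouse was 127% in control and 43.9% in Nav-Tsc2.

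Ednra (chr8:77663031-77724464, - strand) encodes ETA, the endothelin-1 receptor of smooth muscle and of some nociceptors. Control mice 1 to 4 had 3.71, 3.81, 2.17 and 1.69 CPM, and Nav-Tsc2 mice 1 to 4 had 5.90, 2.26, 4.85 and 3.30 CPM. The ranges overlapped and the difference did not pass (log2 fold change 0.52, SE 0.40, edgeR, adjusted p = 0.414), nor did the value of 1.58 from the same fit of single libraries (limma, adjusted p = 0.186). Of the mural cell markers, Acta2 was at 0.131 ± 0.108 CPM in control and 7.25 ± 0.862 CPM in Nav-Tsc2 mice, and Pdgfrb at 6.89 ± 3.23 and 14.8 ± 3.27 CPM, both called higher (edgeR, adjusted p = 0.00040 and 0.0493). The sum of the mural list ranged from 5.59 to 46.3 CPM in control and from 20.6 to 149.6 CPM in Nav-Tsc2 mice. The part of these cells in the level of Ednra was not tested.

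The bradykinin receptors were at or near 0 in these neurons. Bdkrb1 (chr12:105603085-105605428, + strand), the inducible B1 receptor, had 0 counts in all 24 libraries, which allows a level of up to 0.0138 CPM over the control mice and 0.0133 CPM over the Nav-Tsc2 mice (3 counts of each group's total). Bdkrb2 (chr12:105563226-105595237, + strand), the constitutive B2 receptor, lies 7.85 kb from it and had 84 counts in all. Control mice 1 to 4 had 45, 0, 18 and 11 counts, and Nav-Tsc2 mice 1 to 4 had 9, 1, 0 and 0 counts. These came from 4 control and 2 Nav-Tsc2 libraries, and the difference did not pass (edgeR, adjusted p = 0.249). Such intervals and floors cover counting error only.

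Expressed per kb of exon that no other gene shares, Ptgir had the highest level in every mouse, at 47.9 ± 21.0 CPM per kb in control and 7.40 ± 1.53 CPM per kb in Nav-Tsc2 (SD, n = 4 mice each). Ptger1 came next at 11.1 ± 6.38 and 3.65 ± 2.34 CPM per kb. Over its full exon length Ptger1 was at 3.21 and 1.06 CPM per kb, behind F2r in control and behind Ptger3, Hrh1 and F2r in Nav-Tsc2. The overlap setting of the counts is not known, so its place in the order is uncertain. In control the order continued with F2r at 5.96, Ptger4 at 1.76, Ptger3 at 1.74, Hrh1 at 0.662, Ednra at 0.528, F2rl1 at 0.185 and Bdkrb2 at 0.0863 CPM per kb. Only Ptger3 and Hrh1 did not overlap among neighbours of this order, and Bdkrb1 at 0 stood last. In Nav-Tsc2 the order was Ptgir, Ptger1, Ptger3 at 2.30, Hrh1 at 1.48, F2r at 1.17, Ednra at 0.758, Ptger4 at 0.467, F2rl1 at 0.0610 and Bdkrb2 at 0.0134 CPM per kb. There, only Ptger4 and F2rl1 did not overlap among neighbours.

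The level of the 10 receptors together was 69.9 ± 25.5 CPM per kb in control mice and 17.3 ± 3.18 CPM per kb in Nav-Tsc2 mice, with ranges of 32.2 to 87.3 and 13.1 to 19.9 that did not overlap. Ptgir made up 66.0% ± 9.87 of this sum in control and 43.3% ± 8.60 in Nav-Tsc2. The sum and the shares rest on the unshared exon length, and with the full length of Ptger1 they would differ. As shares sum to the whole, those of the receptors with no lower mean were larger in Nav-Tsc2. Ptger3 went from 3.01% ± 2.03 to 13.6% ± 2.20, Hrh1 from 0.939% ± 0.387 to 8.45% ± 2.98 and Ednra from 0.839% ± 0.368 to 4.50% ± 1.84. The shares of these 3 did not overlap between genotypes, although their CPM did.

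Whether the sexes differed in the effect of genotype was asked with an interaction term. The differences within a sex came from the same fit of all 8 mice, with 2 mice of each genotype in each sex. No receptor passed, with adjusted p from 0.424 to 0.947 (edgeR). Ptger4 had a log2 fold change of -2.70 in males (edgeR, adjusted p = 0.0081) and -1.24 in females (edgeR, adjusted p = 0.137), and the interaction of 1.46 had an adjusted p of 0.522 (edgeR). F2rl1 had 0.79 in males and -4.94 in females, from few counts, and the interaction had an adjusted p of 0.424 (edgeR). Ptgir was lower in both sexes, by log2 fold changes of -3.01 in males (edgeR, adjusted p = 0.0105) and -2.33 in females (edgeR, adjusted p = 0.0422). F2r passed in neither sex, at -1.64 in males (edgeR, adjusted p = 0.145) and -2.58 in females (edgeR, adjusted p = 0.0643). Ptger1 passed in each sex, at -1.53 in males (edgeR, adjusted p = 0.0466) and -1.80 in females (edgeR, adjusted p = 0.0485). As the fit was shared, these were not independent tests, and Ptger1 missed the threshold in the fit without sex.

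For each called receptor, the other genes with a mean of at least 10 CPM were ranked by the root mean square difference of their centred log2 CPM over the 24 libraries. The pattern of Ptgir was most like those of Fstl5 (a difference of 0.753) and Ngfr, the p75 neurotrophin receptor (0.822), beside a median of 1.93 over 8444 genes. Fstl5 was at 48.3 ± 18.7 CPM in control and 10.4 ± 2.52 CPM in Nav-Tsc2 mice, and Ngfr at 407 ± 124 and 74.7 ± 16.6 CPM. Ptger4 was most like Jade2 (0.786) and 1700086L19Rik (0.808), beside a median of 1.26. Jade2 was at 16.8 ± 2.68 and 8.28 ± 1.08 CPM, and 1700086L19Rik at 35.2 ± 16.1 and 11.1 ± 3.54 CPM. F2r was most like Syt6 (1.18) and Gbp7 (1.19), beside a median of 1.71. These differences were larger than those of the nearest genes of Ptgir and Ptger4, whose medians also differed. The libraries of both genotypes entered this ranking, so genes that differ by genotype in the same direction rank high.

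Most other receptors of the same ligand classes did not pass the test. Of 11 relatives 9 were tested, 1 was lower and none higher (median log2 fold change 0.03), beside 8.00% and 9.12% of all tested genes. F2rl2, which encodes PAR3 and lies 78.4 kb from F2r, was the most abundant of them. It was at 463, 471, 474 and 470.1 CPM in control mice 1 to 4 and at 364, 349, 355 and 249.7 CPM in Nav-Tsc2 mice 1 to 4, with no overlap (log2 fold change -0.51, SE 0.12, edgeR, adjusted p = 0.0129). Without Nav-Tsc2 4 it was -0.40, short of the limit of 0.5, and the call was lost. The prostaglandin D2 receptor Ptgdr was at 40.7 ± 22.1 and 53.4 ± 5.60 CPM, the endothelin receptor Ednrb at 99.2 ± 12.4 and 83.2 ± 13.9 CPM, and neither passed. Ptgfr, the receptor for prostaglandin F2alpha, was at 8.81 ± 7.24 and 1.35 ± 1.48 CPM and missed the threshold (edgeR, adjusted p = 0.0568), as did Hrh2 at 0.349 ± 0.164 and 1.57 ± 1.14 CPM (edgeR, adjusted p = 0.0559).

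Receptors for other inflammatory lipids moved in both directions, with 3 lower and 1 higher of 10 tested (median log2 fold change -0.39). Over all tested genes 8.00% were lower and 9.12% higher. The platelet-activating factor receptor Ptafr was at 29.4 ± 22.9 CPM in control and 0.209 ± 0.124 CPM in Nav-Tsc2 mice (log2 fold change -7.09, edgeR, adjusted p = 0.0003). Among the sphingosine 1-phosphate receptors, S1pr1 was at 17.7 ± 3.24 and 1.31 ± 0.516 CPM (log2 fold change -3.76, edgeR, adjusted p = 0.0001), and S1pr3 at 114.7 ± 36.0 and 31.2 ± 10.6 CPM (log2 fold change -1.88, edgeR, adjusted p = 0.0016). S1pr2 rose from 1.14 ± 0.752 to 6.70 ± 1.94 CPM (log2 fold change 2.56, edgeR, adjusted p = 0.0144).

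Genes that make or break down the ligands gave 2 lower and 2 higher of 15 tested (median log2 fold change 0.15), beside 8.00% and 9.12% of all tested genes. The histamine-degrading enzyme Hnmt fell from 37.0 ± 10.6 to 12.8 ± 2.48 CPM (log2 fold change -1.54, edgeR, adjusted p = 0.0018), a call lost only in the fit of single libraries (limma, adjusted p = 0.185), and the endothelin-converting enzyme Ece2 from 55.3 ± 5.62 to 34.7 ± 2.12 CPM (log2 fold change -0.67, edgeR, adjusted p = 0.0020). The prostaglandin E synthase Ptges2 rose from 14.0 ± 2.95 to 24.3 ± 1.84 CPM (log2 fold change 0.79, edgeR, adjusted p = 0.0093). The prostaglandin-inactivating enzyme Hpgd rose from 0.683 ± 0.50 to 6.74 ± 4.65 CPM (log2 fold change 3.29, edgeR, adjusted p = 0.0107), a call that was lost with the replicate block (edgeR, adjusted p = 0.0543). The cyclooxygenases Ptgs1 and Ptgs2 had too few counts to be tested, and Edn1 had none.

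Downstream of the receptors, 1 of 10 tested G protein alpha subunits was lower (median log2 fold change -0.05). It was Gnai1, at 51.6 ± 7.62 and 33.4 ± 7.69 CPM (edgeR, adjusted p = 0.0347), and the genotypes overlapped. Its call was lost with the replicate block (edgeR, adjusted p = 0.0887) and without control 1, 2 or 4 or Nav-Tsc2 1, 2 or 4. Of 30 tested effectors 3 were lower and 2 higher (median -0.16), counts near the shares of 8.00% and 9.12% over all tested genes. The 3 that fell were phospholipase C beta 1 (Plcb1), from 38.9 ± 4.81 to 7.54 ± 1.61 CPM (log2 fold change -2.37, edgeR, adjusted p = 0.0001), and 2 protein kinases C. Prkcb went from 108 ± 31.4 to 16.6 ± 6.96 CPM (log2 fold change -2.70, edgeR, adjusted p = 0.0005) and Prkce from 261 ± 41.4 to 152 ± 5.66 CPM (log2 fold change -0.78, edgeR, adjusted p = 0.0016). The inositol trisphosphate receptor Itpr3 rose from 5.17 ± 2.62 to 12.8 ± 3.51 CPM (log2 fold change 1.30, edgeR, adjusted p = 0.0487), but it was called in only 4 of 17 other fits and not with the replicate block (edgeR, adjusted p = 0.107). Rapgef3, a cyclic AMP sensor also known as Epac1, was nearly absent in control at 0.0140 CPM and was at 2.78 ± 1.000 CPM in Nav-Tsc2 mice (edgeR, adjusted p = 0.0002).

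Genes that switch off the receptors had 2 of 7 higher and none lower (median log2 fold change 0.07), beside 9.12% and 8.00% of all tested genes. The receptor kinase Grk2 rose from 46.8 ± 8.32 to 80.0 ± 13.0 CPM (log2 fold change 0.77, edgeR, adjusted p = 0.0068) and beta-arrestin 1 (Arrb1) from 109.95 ± 9.19 to 173 ± 5.12 CPM (log2 fold change 0.65, edgeR, adjusted p = 0.0007). Of the channels on which these pathways act, 2 of 10 tested were lower and none higher (median -0.30), beside the same 8.00% and 9.12%. The acid-sensing channel Asic3 fell from 213 ± 62.0 to 35.9 ± 11.2 CPM (log2 fold change -2.57, edgeR, adjusted p = 0.0004), and the M-type potassium channel subunit Kcnq5 from 20.2 ± 8.98 to 2.25 ± 0.966 CPM (log2 fold change -3.17, edgeR, adjusted p = 0.0007). Over the 7 lists, 12 of 91 tested genes were lower (13.2%, beside 8.00% of all tested genes) and 7 higher (7.69%, beside 9.12%).

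**Figure D4:**
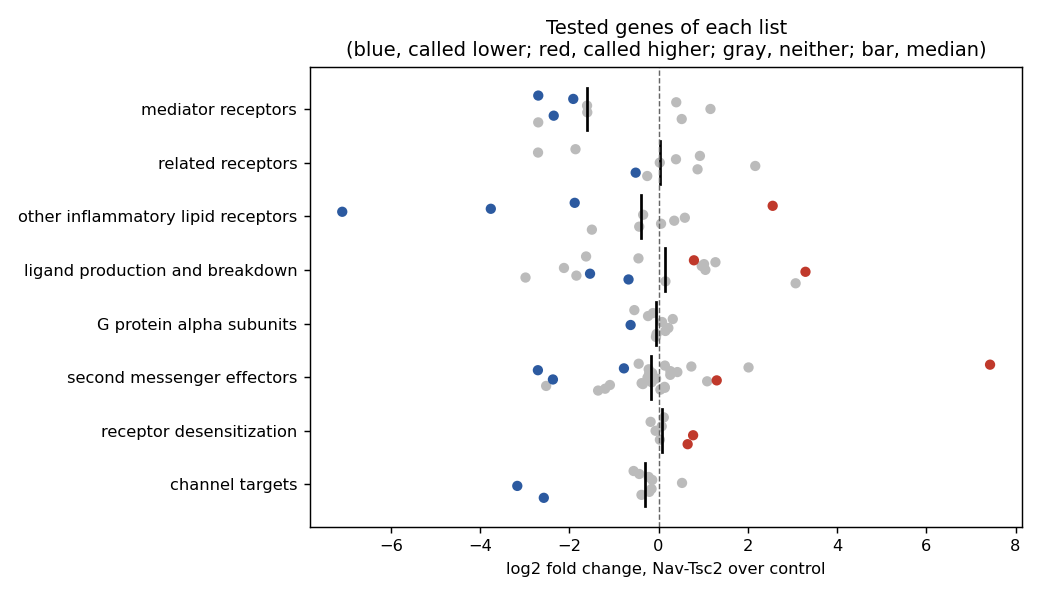
Log2 fold change of each tested gene in the lists of related receptors, ligand enzymes and signaling genes, with the 9 tested mediator receptors at the top. Points are blue for genes called lower, red for genes called higher and gray for neither, black bars are the median of each list, and the dashed line is the median of all tested genes. The median of the mediator receptors was -1.60, and those of the other lists lay between -0.39 and 0.15.

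**Figure D5:**
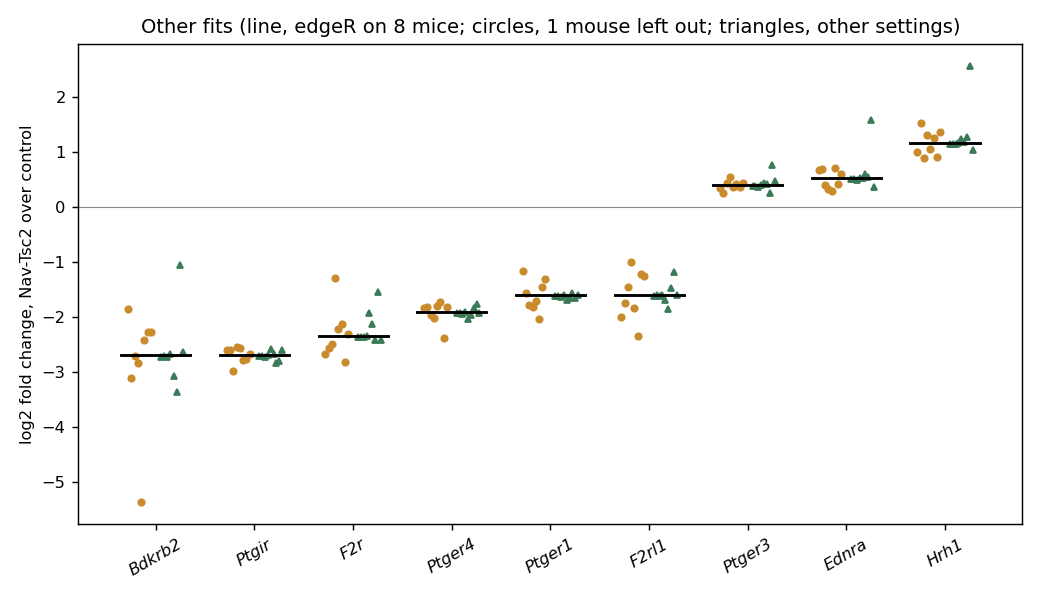
Log2 fold change of the 9 tested receptors under 17 other fits, with circles for fits without 1 mouse, triangles for other settings and a line for the value in the text. Every receptor kept its sign in all fits that gave a value, Ptgir stayed between -2.99 and -2.56, and F2r ranged from -2.81 to -1.29.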

How the data were processed

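RNA-seq libraries were made with a SMARTer Ultra Low kit, which does not mark strand, and read as single 50-base reads. Per the submitters' processing notes the authors used FastQC, STAR with mm10, HTSeq and DESeq2, and they deposited 1 raw count per gene and library. The annotation release and the overlap setting are not given in the sources used here. A deposited table of DESeq2 normalized values, fold changes and p-values was not used.

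The mouse was the replicate, with its 3 libraries added together. Genes were filtered with filterByExpr (minimum count 10), scaled by TMM and tested with the edgeR quasi-likelihood F-test (edgeR 4.0.16, R 4.3.3), Benjamini-Hochberg adjusted over 17178 genes. Standard errors were the fold change (log2) over the root of the F statistic. Tools for alternatives were DESeq2 1.42.0 and limma 3.58.1. Coordinates and overlaps came from GENCODE on GRCm38, which matched 47224 of 47643 identifiers. Of the 10 receptors, 7 had a RefSeq promoter.

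Unassigned reads made up 47.6% to 55.9% of a library and stayed out of all totals. Reads were amplified without molecular identifiers. A pairing of mice by replicate number was checked on 8445 genes, where deviations from the genotype mean correlated at 0.184, 0.185, 0.108 and 0.199. All were over 0.1, and the numbers also follow sex. Control mice 1 to 4 correlated with the other Nav-Tsc2 mouse of their sex at 0.198, 0.0627, 0.110 and 0.185. Mice of unlike sex correlated at -0.251 to -0.0826. The check thus could not tell a pairing by number from sex. The receptors and lists were chosen with earlier results of these data known. The genes named are the 10 receptors, Tsc2, the called genes of each pathway list (at most 6), the 2 nearest genes of each called receptor and markers needed beside a receptor. Ptgdr, Ednrb, Ptgfr, Hrh2, Ptgs1, Ptgs2 and Edn1 were added after their values were seen.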

Additional observations from a re-analysis of the deposited data

Results flagged for a closer look

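In 3 of 18 groups of 4 mice, 1 mouse lay far from the others by Dixon's gap test on CPM. For normally distributed values, chance alone flags about 1 in 20 groups. CPM near 0, as for Bdkrb2, need not be so distributed, so the 3 groups cannot be set against that rate. Ptgir was at 55.3 CPM in control 3, below the other control mice. Ptger4 was at 4.77 CPM in Nav-Tsc2 3, above the other Nav-Tsc2 mice. Bdkrb2 was at 0.185 CPM in Nav-Tsc2 1, from 9 counts, while the other Nav-Tsc2 mice had at most 1 count.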

How the results depend on the processing

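Over 17 alternatives, the 9 tested receptors gave 152 values and none changed sign, with 140 on the same side of the threshold as in the report, 6 that lost a call (F2r) and 5 that gained one (Ptger1), and 1 value without an adjusted p (Bdkrb2 in DESeq2). Ptgir was called in all 17 (log2 fold change -2.99 to -2.56) and Ptger4 in all 17 (-2.38 to -1.73). DESeq2 also called Ptger1 (adjusted p = 0.0061). The replicate block changed no call of a receptor other than Ptger1 and F2r. With 24 libraries and the mouse as a random effect, Ptger1 was called (limma, adjusted p = 0.0146), F2r was not (limma, adjusted p = 0.138), 13 genes of the pathway lists were higher instead of 7, and of all genes 1339 were lower and 2705 higher instead of 1374 and 1567, beside a median shift of all genes of 0.14 on the log2 scale. The cause was not tested. An interaction of genotype with sex passed for 1 gene in edgeR and 296 in DESeq2. Leaving out libraries Nav-Tsc2 3B and 4A, chosen after seeing the data, changed no receptor call. Bdkrb2 was not tested with libraries weighted equally. Bdkrb1, Bdkrb2 and F2rl1 had too few counts for a firm statement. Of the pathway list genes named in the report, Gnai1, Hpgd and Itpr3 lost their call with the replicate block.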
